A study of Mus musculus with 6 samples.

Results

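The BCL2 family genes followed here are 10 genes of mitochondrial cell death, taken by symbol from the gene tables of the series out of 23850 gene entries. They comprise 3 pro-survival genes (Bcl2, Bcl2l1 and Mcl1), 5 BH3-only genes (Bcl2l11, Bbc3, Pmaip1, Bid and Bad) and 2 effector genes (Bax and Bak1). Each symbol matched a single entry, and all 10 passed the limit on low values, which asked for 1 FPKM or above on average across libraries. FPKM are fragment counts scaled by transcript length and by library size.

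The study compared B cells grown as germinal centre cells in culture, in 3 libraries with DMSO, the solvent, and 3 libraries with CHIR99021, an inhibitor of the kinases GSK3A and GSK3B. All cells came from wild type mice of the strain C57BL/6J, whose age is not given in the labels. Naive follicular B cells first spent 4 days on feeder cells that express CD40L, with 1 ng/ml of IL-4. CHIR99021 or DMSO was then given for 36 hours on the same kind of feeder, with 10 ng/ml of IL-21, and the cells were purified before RNA was taken. The labels give 3 uM for CHIR99021 and print the same figure for DMSO, and the feeder cells and cytokines stand in for a germinal centre in both groups.

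The BCL2 family decides whether the outer membrane of the mitochondrion stays intact. BAX and BAK form the pores that release cytochrome c, pro-survival proteins such as BCL2, BCL-XL and MCL1 hold them in check, and BH3-only proteins bind the pro-survival proteins or the effectors and so promote death. Germinal centre B cells are known for being prone to apoptosis, for low BCL2 and for their need of MCL1, and MCL1 protein is known to be marked for degradation by GSK3, a step that transcript levels do not show.

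Of the 10 genes, 1 fell with CHIR99021 and 0 rose, the one being Mcl1, which was 1.58-fold lower. Among all 10096 genes tested 21.4% changed, with 8.13% higher and 13.3% lower, so the family's count is not above that of genes in general. The split by direction depended on scaling, as 37.9% of all calls were higher here and 54.9% with upper-quartile scaling. Bcl2 and Bad joined Mcl1 when the replicate number, taken to pair the libraries, was used as a block: then 3 of 10 fell and 0 rose, against 42.8% of all tested genes changed and 24.4% lower. The median log2 change was -0.14 over the family and -0.04 over all tested genes. The groups did not overlap for the 3 pro-survival genes, all lower with CHIR99021, and overlapped for the 7 others; over all tested genes the groups did not overlap for 40.1%, with 23.1% lower. In these bulk libraries, fewer cells of a type and less RNA per cell cannot be told apart.

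**Figure D1:**
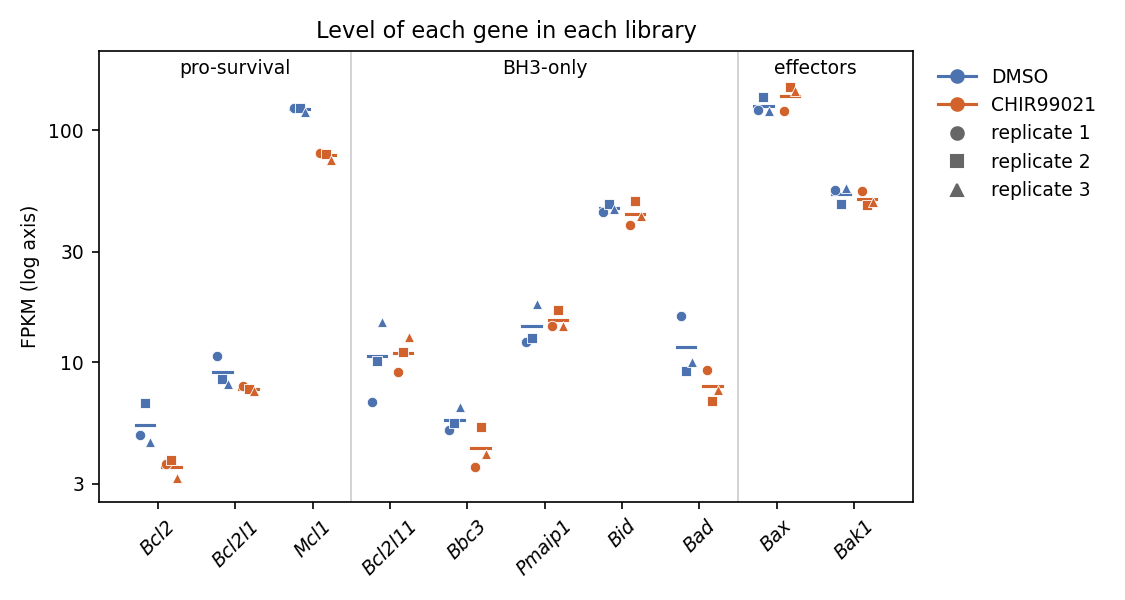
FPKM (log axis) of the 10 genes in each library, by role, with bars at the group means and symbols for the replicate number. Mcl1 lies at 120.1 to 125 FPKM with DMSO and at 74.2 to 80.1 with CHIR99021, while both groups of Bid, Bax and Bak1 share a range.

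Promoters are shown for 2 pro-survival members, for Bcl2a1d, a further pro-survival gene that fell, and for Bcl2l11, a BH3-only gene known as a target of FOXO factors. Each line holds the 250 bases upstream of a RefSeq transcription start on GRCm38.p6 (the assembly called mm10), read 5′ to 3′ on the strand of the gene, and capitals mark every match to a searched motif. The windows are chr3:95658471-95658720 (plus strand) for Mcl1, chr1:106714291-106714540 (minus strand) for Bcl2, chr9:88731851-88732100 (minus strand) for Bcl2a1d and chr2:128125788-128126037 (plus strand) for Bcl2l11, which has a further annotated start.
Mcl1: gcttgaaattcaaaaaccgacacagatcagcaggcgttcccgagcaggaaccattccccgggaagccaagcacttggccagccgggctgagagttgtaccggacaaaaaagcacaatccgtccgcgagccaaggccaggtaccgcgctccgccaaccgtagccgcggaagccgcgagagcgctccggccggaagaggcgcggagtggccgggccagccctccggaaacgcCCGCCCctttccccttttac
Bcl2: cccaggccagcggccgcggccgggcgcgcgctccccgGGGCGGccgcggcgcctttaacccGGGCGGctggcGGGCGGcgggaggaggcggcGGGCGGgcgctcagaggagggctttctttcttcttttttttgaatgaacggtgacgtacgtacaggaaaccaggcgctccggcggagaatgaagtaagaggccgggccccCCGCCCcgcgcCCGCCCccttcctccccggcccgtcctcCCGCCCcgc
Bcl2a1d: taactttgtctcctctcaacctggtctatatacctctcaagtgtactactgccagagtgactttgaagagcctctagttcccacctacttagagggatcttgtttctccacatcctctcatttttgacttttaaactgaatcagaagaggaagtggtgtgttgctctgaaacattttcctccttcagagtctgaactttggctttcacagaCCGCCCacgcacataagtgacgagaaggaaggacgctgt
Bcl2l11: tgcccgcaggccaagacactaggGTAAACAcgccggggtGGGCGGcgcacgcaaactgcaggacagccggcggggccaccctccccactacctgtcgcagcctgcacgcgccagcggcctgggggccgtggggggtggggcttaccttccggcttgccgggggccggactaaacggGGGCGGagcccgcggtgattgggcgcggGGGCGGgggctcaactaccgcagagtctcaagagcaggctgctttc
The motifs, searched on both strands, were the STAT motif TTCNNNGAA, the TCF/LEF motif CTTTGAT, the FOXO motif GTAAACA, the CREB/ATF motif TGACGTCA, the E-box CACGTG, the SP1 motif GGGCGG and the kappaB consensus. All capitals in the lines of Mcl1, Bcl2 and Bcl2a1d are SP1 matches, which 32.7% of the 32851 windows of this length hold. Bcl2l11 holds SP1 matches and 1 FOXO match, its first capitals, which begins 227 bases before the start, and 3.17% of windows hold that motif. The STAT (7.02% of windows), kappaB (7.25%), TCF/LEF (3.21%), CREB/ATF (1.55%) and E-box (6.02%) motifs have no match in the 4 windows. Some searched windows that are not shown do hold such matches, while the windows of Pmaip1 are not reported here. A window of Bcl2l1 holds a kappaB match, windows of Bbc3 hold kappaB, FOXO and E-box matches, and that of Bax holds an E-box match. These are matches of letters, and no binding was measured.

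Mcl1 encodes the short-lived pro-survival protein that B cells need at most stages (chromosome 3, 95658721 to 95663178, plus strand). Its level was 124.6, 125 and 120.1 FPKM with DMSO and 80.1, 79.4 and 74.2 FPKM with CHIR99021. Every CHIR99021 library was below every DMSO library, by more than the spread within either group. The group means were 123 ± 2.74 and 77.9 ± 3.18 FPKM (SD, n = 3 each), a log2 change of -0.66 ± 0.07 (SE) on the scale of log2(FPKM + 1), with adjusted p = 0.00125 in limma and 0.000221 with the replicate block. Within the pairs of equal replicate number the fall was -35.7%, -36.5% and -38.2%. The limits that Cufflinks gives for Mcl1 lay 3.78% to 5.57% from the value, depending on the library.

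Bcl2, the founding pro-survival gene (chromosome 1, 106538179 to 106714290, minus strand), was the lowest of the 10 genes by mean level. With DMSO it had 4.84, 6.71 and 4.53 FPKM, and with CHIR99021 3.65, 3.78 and 3.17. The groups did not overlap, but replicate 2 with DMSO stood above the other libraries of its group. Mean levels were 5.36 ± 1.18 and 3.53 ± 0.325 FPKM (SD, n = 3 each), 1.52-fold lower with CHIR99021. The log2 change of -0.48 had a 95% interval of -0.85 to -0.10, not adjusted for the number of genes, and did not pass the test (adjusted p = 0.0731 in limma), whereas it did with the replicate block (adjusted p = 0.0131). The Cufflinks limits of Bcl2 lay 14.4% to 22.8% from the value.

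Bcl2l1 encodes BCL-XL and, by splicing, a shorter death-promoting form that gene-level values do not separate (chromosome 2, 152780668 to 152831682, minus strand). Its FPKM were 10.7, 8.503 and 8.04 with DMSO and 7.93, 7.66 and 7.502 with CHIR99021. The groups did not overlap, with replicate 1 with DMSO standing highest and the CHIR99021 libraries close together. The log2 change of -0.20 (95% interval -0.50 to 0.09) did not pass the test, without (adjusted p = 0.294 in limma) or with the replicate block (0.117).

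Among the BH3-only genes, Bad was lower in 3 of 3 pairs and passed the test with the block alone. BAD is a BH3-only protein held inactive by phosphorylation downstream of growth factors (chromosome 19, 6941855 to 6951893, plus strand). With DMSO it had 15.8, 9.15 and 10.04 FPKM, and with CHIR99021 9.28, 6.81 and 7.605. The groups overlapped, since replicate 1 with CHIR99021 was above replicate 2 with DMSO, and replicate 1 was the highest library of both groups. The log2 change was -0.48 with a 95% interval of -0.96 to -0.01 (adjusted p = 0.134 in limma), or -0.72 to -0.25 with the replicate block (adjusted p = 0.00814). The Bad entry shares 596 bases with that of Gpr137, at a mean of 5.92 FPKM, and no source used here states whether reads were assigned by strand.

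Bbc3 encodes PUMA, a p53 target that binds all pro-survival proteins (chromosome 7, 16309583 to 16318334, plus strand). It had 5.08, 5.49 and 6.398 FPKM with DMSO and 3.55, 5.24 and 4.03 with CHIR99021. It was lower in 3 of 3 pairs, by -30.1%, -4.64% and -36.97%, but the groups overlapped and it did not pass the test (log2 change -0.34, 95% interval -0.71 to 0.02, adjusted p = 0.162 in limma, or 0.0569 with the replicate block).

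Bcl2l11 encodes BIM, the main BH3-only protein in the removal of self-reactive and cytokine-deprived lymphocytes (chromosome 2, 128126038 to 128162547, plus strand). Its values were 6.75, 10.1 and 14.9 FPKM with DMSO and 9.03, 11.02 and 12.9 with CHIR99021. The ranges overlapped fully, and in both groups replicate 1 was lowest and replicate 3 highest. The log2 change of 0.10 had a 95% interval of -0.49 to 0.68 (adjusted p = 0.835 in limma), the widest of the 10 genes.

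Pmaip1 encodes NOXA, which binds MCL1 and promotes its degradation (chromosome 18, 66458604 to 66465558, plus strand). It had 12.2, 12.8 and 17.9 FPKM with DMSO and 14.3, 16.8 and 14.3 with CHIR99021, and was higher in 2 of 3 pairs. The groups overlapped (log2 change 0.09, 95% interval -0.26 to 0.45, adjusted p = 0.72 in limma).

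Bid, which links death receptors to the mitochondrion once caspase-8 cuts it, was the most abundant of the 5 BH3-only members (chromosome 6, 120893119 to 120916820, minus strand). Its FPKM were 44.3, 48.01 and 45.96 with DMSO and 38.9, 49.4 and 42.5 with CHIR99021. The range with CHIR99021 enclosed that with DMSO (log2 change -0.08, 95% interval -0.32 to 0.15, adjusted p = 0.611 in limma).

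The effector genes did not pass the test in either direction, with or without the block. Bax (chromosome 7, 45461695 to 45466898, minus strand) had 122, 139 and 120.5 FPKM with DMSO and 121, 154 and 147 with CHIR99021. Within pairs it differed by -0.806%, 11.2% and 21.9% (log2 change 0.14, 95% interval -0.12 to 0.40, adjusted p = 0.413 in limma). Bak1 (chromosome 17, 27019812 to 27028626, minus strand) had 55.2, 48.3 and 56.5 FPKM with DMSO and 54.7, 47.8 and 48.99 with CHIR99021. Its groups overlapped (log2 change -0.08, 95% interval -0.30 to 0.15, adjusted p = 0.631 in limma, and a log2 change of 0.0043 with upper-quartile scaling), and the entry lies over that of Ggnbp1, at a mean of 0.276 FPKM.

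**Figure D2:**
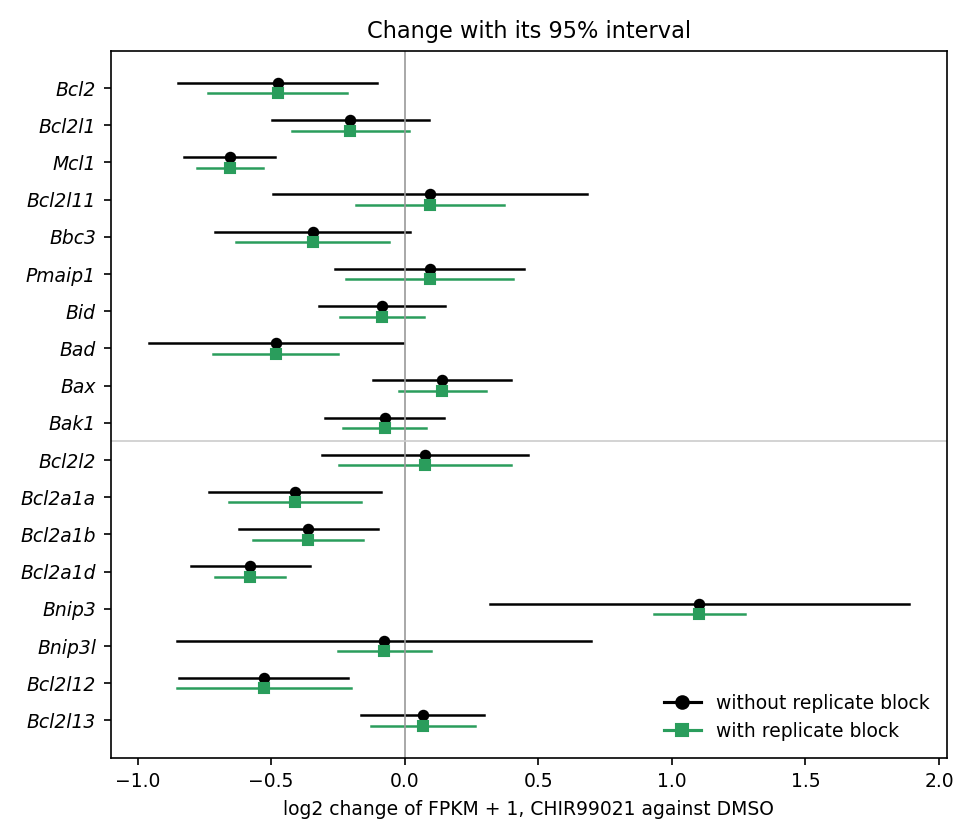
Log2 change of FPKM + 1 with CHIR99021 against DMSO and its 95% interval, not adjusted for the number of genes, for the 10 genes (above the line) and for 8 further BCL2 family genes that were tested (below it), without the block (circles) and with it (squares). Mcl1 and Bcl2a1d lie well below 0 in both fits, at -0.66 and -0.58, and the interval of Bnip3 narrows most with the block.

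Since FPKM are scaled for length, the levels of the genes can be set beside each other, and their order is a description. By mean FPKM over the 6 libraries, Bax (134) came first, followed by Mcl1 (100.55), Bak1 (51.9), Bid (44.8), Pmaip1 (14.7), Bcl2l11 (10.8), Bad (9.79), Bcl2l1 (8.39), Bbc3 (4.97) and Bcl2 (4.45). The ranges of neighbours Bcl2l11 and Bad, Bad and Bcl2l1, and Bbc3 and Bcl2 overlapped in both groups. Those of Bax and Mcl1 overlapped with DMSO but not with CHIR99021. The ratio of Mcl1 to Bax was 1.02, 0.902 and 0.996 with DMSO and 0.66, 0.515 and 0.505 with CHIR99021. Mcl1 was thus about level with the main effector gene in DMSO libraries and lay below it in each CHIR99021 library.

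Mcl1 made up most of the summed level of the 3 pro-survival members. It exceeded Bcl2l1 by a factor of 11.7, 14.7 and 14.9 with DMSO and 10.1, 10.4 and 9.897 with CHIR99021. The summed FPKM of the pro-survival members was 140.1, 140.2 and 133 with DMSO and 91.7, 90.8 and 84.9 with CHIR99021. Their share of the summed FPKM of the 10 genes was 34.9%, 33.98% and 32.8% with DMSO and 26.7%, 23.8% and 23.4% with CHIR99021. The effector share was 44.2%, 45.3% and 43.7% with DMSO and 51.4%, 52.9% and 54.1% with CHIR99021. The BH3-only share overlapped between groups, at 20.7% to 23.5% with DMSO and 21.9% to 23.4% with CHIR99021. These sums follow mainly Mcl1 and Bax and carry no test, and shares of transcript level say nothing of protein.

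**Figure D3:**
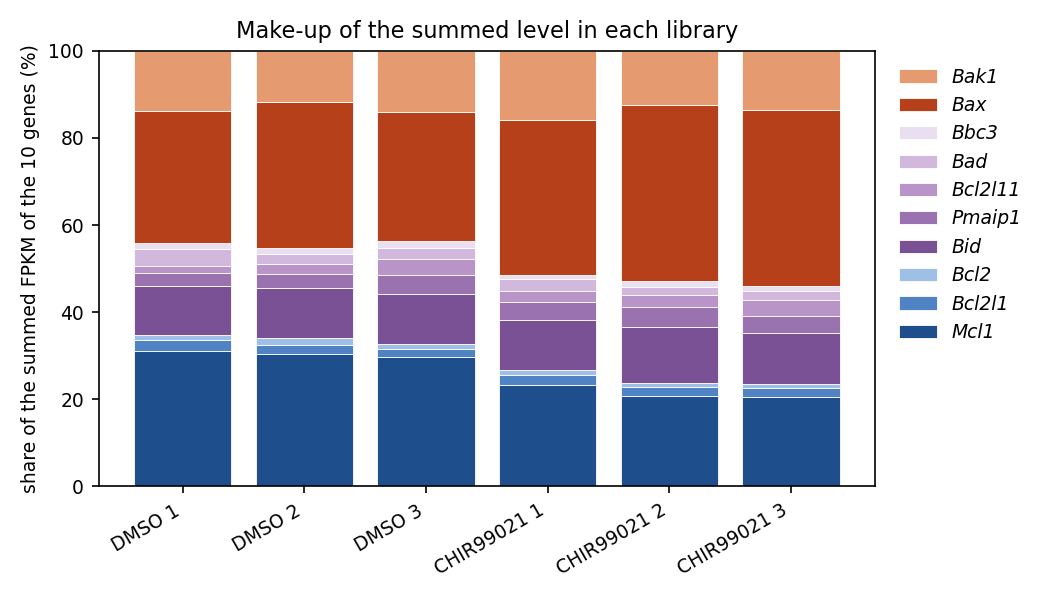
Share of each gene in the summed FPKM of the 10 genes, in percent, for each library, with pro-survival genes in blue, BH3-only genes in purple and effector genes in red and orange. The share of Mcl1 is 29.7% to 31% with DMSO and 20.5% to 23.4% with CHIR99021.

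Other pro-survival genes of the family were read from a list of 6, of which 4 were tested, 1 fell and 0 rose, or 3 fell with the replicate block. Over all tested genes 13.3% fell, or 24.4% with the block. Bcl2a1 genes encode A1, a pro-survival protein induced by CD40 and NF-kappaB, and exist in near-identical copies whose reads may have been split between them, so their single values are uncertain. Bcl2a1d had 61.3, 58.1 and 68.4 FPKM with DMSO and 40.65, 38.9 and 45.2 with CHIR99021, with no overlap (log2 change -0.58 ± 0.10 SE, adjusted p = 0.00583 in limma). Bcl2a1b, the most abundant copy, had 173, 131 and 137 FPKM with DMSO and 112.6, 112 and 116 with CHIR99021. Its groups did not overlap either (adjusted p = 0.0569 in limma, 0.0154 with the block, 0.0381 without DMSO replicate 2, 0.0417 with quantile normalization and 0.0489 among genes of 5 FPKM or more). Bcl2a1b stayed uncalled in 11 of 16 alternatives. Among them were upper-quartile scaling (0.149) and leaving out any single library other than DMSO replicate 2 (up to 0.141). Bcl2a1a was at 3.15 to 3.93 FPKM with DMSO and 2.2 to 2.55 with CHIR99021 (adjusted p = 0.0727, or 0.0185 with the block). Bcl2l2, which encodes BCL-W, had 2.33 to 3.72 FPKM over the 6 libraries (adjusted p = 0.794), Bcl2a1c was at 0.649 FPKM in 1 library and listed at 0 in the others, and Bcl2l10 was listed at 0 in all.

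Of 5 further BH3-only genes, 2 were tested and 0 passed without the block. Over all tested genes 21.4% were called, or 42.8% with the block. With 2 tested genes each, the counts of this list and of the genes of less settled role cannot be set apart from that share. Bnip3, which promotes mitophagy and is induced by hypoxia, had 45.9, 23.3 and 50.9 FPKM with DMSO and 88.9, 55.2 and 115 with CHIR99021. It was higher in 3 of 3 pairs and the groups did not overlap, with replicate 2 lowest in both. Its log2 change of 1.10 ± 0.34 (SE) missed the threshold in limma (adjusted p = 0.0541) and passed it with the block (0.00014), without CHIR99021 replicate 2 (0.0338), with upper-quartile scaling (0.0419) or quantile normalization (0.0389) and among genes of 5 FPKM or more (0.043). Bnip3 stayed uncalled in 10 of 16 alternatives. Leaving out any single library other than CHIR99021 replicate 2 was among them (adjusted p up to 0.184 in limma). Its relative Bnip3l had 22.2 to 42.4 FPKM with DMSO and 18.9 to 43.98 with CHIR99021 (adjusted p = 0.905). Bmf, Bik and Hrk lay below the limit on level, with at most 0.876 FPKM in any library. Of 5 genes of less settled role, 2 were tested, and Bcl2l12 fell from 31.3 ± 4.64 to 21.4 ± 2.71 FPKM (SD, n = 3 each, adjusted p = 0.0304 in limma). Bcl2l12 overlaps another entry, Gm15545, at a mean of 2.299 FPKM, and was not called without DMSO replicate 1 or 3 or without CHIR99021 replicate 1 or 3 (adjusted p up to 0.0826).

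Downstream of the family, released cytochrome c assembles APAF1 and caspase-9 into the apoptosome, which activates the executioner caspases. Of 13 apoptosome and caspase genes, all tested, 1 rose and 3 fell (median log2 change -0.06), or 1 and 4 with the block. The share called without the block was 30.8%, against 21.4% of all tested genes. With the block 42.8% of all tested genes were called. The initiator gene Casp9 was 1.72-fold lower with CHIR99021, at 12.3, 13.8 and 16.02 FPKM with DMSO and 7.74, 8.03 and 8.72 with CHIR99021 (adjusted p = 0.00625 in limma). Apaf1 fell from 11.5 ± 0.819 to 8.29 ± 0.526 FPKM (SD, n = 3 each, adjusted p = 0.0274 in limma) and Casp2, an initiator caspase linked to p53, from 24.4 ± 1.23 to 18.9 ± 0.491 (0.0226). The cytochrome c gene Cycs rose from 44.8 ± 3.91 to 57.6 ± 5.52 FPKM (SD, n = 3 each, adjusted p = 0.0461 in limma). Leaving out single libraries ended 3 of these calls: that of Apaf1 on leaving out any library other than DMSO replicate 1 (adjusted p up to 0.099), of Casp2 any other than DMSO replicate 2 (up to 0.0837), and of Cycs any other than CHIR99021 replicate 1 (up to 0.165). Casp9 stayed called whichever single library was left out.

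Inhibitor of apoptosis proteins restrain caspases or, in the case of the cIAPs, control NF-kappaB signalling from TNF receptor family members. Of 7 such genes 6 were tested, 3 fell and 0 rose (median log2 change -0.38), or 4 fell with the block. Among all tested genes 21.4% were called and 13.3% fell, or 42.8% and 24.4% with the block. Birc2, which encodes cIAP1, was 1.70-fold lower, at 46.3, 52.4 and 37.6 FPKM with DMSO and 26.8, 30.6 and 22.5 with CHIR99021 (adjusted p = 0.0123 in limma). Birc3, which encodes cIAP2, had 43.8, 44.96 and 45.2 FPKM with DMSO and 33.4, 31.7 and 29.9 with CHIR99021 (adjusted p = 0.00535). Xiap, the direct caspase inhibitor, fell from 10.6 ± 0.451 to 7.76 ± 0.344 FPKM (SD, n = 3 each, adjusted p = 0.0259 in limma). The call of Birc2 was lost without CHIR99021 replicate 3 (adjusted p = 0.0526) and that of Xiap on leaving out any library other than DMSO replicate 1 (up to 0.105) or with upper-quartile scaling (0.0774). Of 7 death receptor genes, all tested, 1 fell: Fas, at 31.9 ± 1.67 and 25.2 ± 1.46 FPKM (SD, n = 3 each, adjusted p = 0.0328 in limma), a call lost whichever single library was left out (0.0513 to 0.107) and with upper-quartile scaling (0.153). With the block 3 death receptor genes fell and 1 rose. Tnfrsf10b, which encodes a receptor of TRAIL, rose from 1.78 ± 0.175 to 3.10 ± 1.03 FPKM (SD, n = 3 each, adjusted p = 0.0194 in limma with the block, 0.0924 without), and the adaptor gene Tradd (0.0191 and 0.0504) and the caspase-8 inhibitor gene Cflar (0.0311 and 0.254) were lower.

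**Figure D4:**
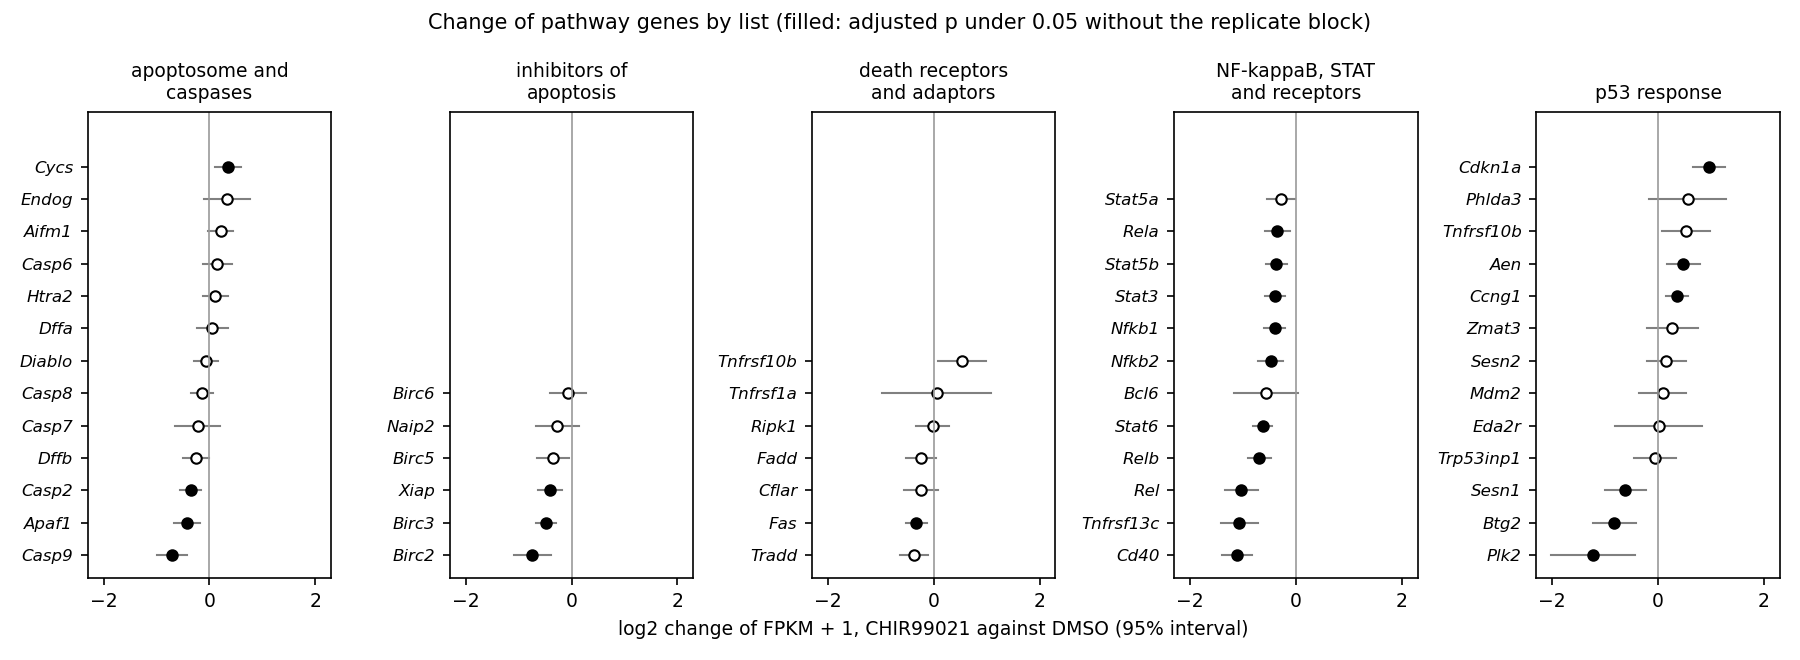
Log2 change of FPKM + 1 with CHIR99021 against DMSO and its 95% interval for the tested genes of 5 lists, with filled points for an adjusted p under 0.05 without the block. All points of the list of NF-kappaB, STAT and receptor genes, which also holds Bcl6, lie below 0, while the interval of Bcl6 reaches 0.03. The p53 response list holds 3 genes that rose and 3 that fell.

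Genes known to act upstream of the pro-survival members, with BCL6 as a repressor of Bcl2, were mostly lower. Of 12 genes for NF-kappaB subunits, STAT factors, BCL6 and the survival receptors, 10 fell and 0 rose (median log2 change -0.52), or 12 fell with the block. Lower genes made up 13.3% of all tested genes, or 24.4% with the block. The list was chosen with earlier results of these data known, and a link to the levels of the pro-survival members was not tested. The survival receptor genes Cd40 and Tnfrsf13c, which encodes the BAFF receptor, fell from 54.2 ± 7.19 to 24.6 ± 2.63 FPKM and from 110.0 ± 14.98 to 52.0 ± 9.45 FPKM (SD, n = 3 each, adjusted p = 0.00115 and 0.00288 in limma). The NF-kappaB gene Rel had 30.8, 35.3 and 31.96 FPKM with DMSO and 13.3, 18.8 and 14.6 with CHIR99021 (adjusted p = 0.00209). Relb fell from 27.9 ± 2.58 to 16.8 ± 0.114 FPKM and Stat6 from 40.98 ± 1.42 to 26.2 ± 0.317 (SD, n = 3 each, adjusted p = 0.00267 and 0.00163 in limma).

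Among 11 transcription factor genes known to drive BH3-only genes, 9 were tested, 1 fell and 0 rose, or 2 fell with the block, with Ddit3 (adjusted p = 0.00584 in limma) as the other. The gene that fell in both fits was Foxo4, from 4.32 ± 0.637 to 2.297 ± 0.0998 FPKM (SD, n = 3 each, adjusted p = 0.0133 in limma). Of 14 p53 response genes 13 were tested, with 3 higher and 3 lower (median log2 change 0.16), or 6 and 3 with the block. The counts of these lists stand beside 21.4% of all tested genes called, or 42.8% with the block. Cdkn1a, which encodes the cell cycle inhibitor p21, was 1.99-fold higher, at 17.8, 15.4 and 12.5 FPKM with DMSO and 28.8, 32.7 and 29.4 with CHIR99021 (adjusted p = 0.00274 in limma). Ccng1 also rose, from 123 ± 5.89 to 158 ± 13.8 FPKM (SD, n = 3 each, adjusted p = 0.0307 in limma). Aen, named after its values were seen, was the third to rise (log2 change 0.48, adjusted p = 0.0395). Plk2 (2.61-fold lower, adjusted p = 0.0395), Btg2 (1.81-fold, 0.0141) and Sesn1 (1.76-fold, 0.0367) fell. The calls of Ccng1 and Sesn1 were each lost without 5 of the 6 libraries singly (all but CHIR99021 replicate 1 for Ccng1, with adjusted p up to 0.122, and all but CHIR99021 replicate 2 for Sesn1, up to 0.131). Plk2 was not called without DMSO replicate 1 or 3 or CHIR99021 replicate 2 or 3 (up to 0.146), nor Btg2 without replicate 3 of either group (up to 0.0594).

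Of 12 genes for the turnover of MCL1 and the anchoring of BH3-only proteins 11 were tested, 1 fell and 0 rose, or 1 fell and 1 rose with the block. The gene that rose with the block alone was Mapk8, which encodes the kinase JNK1, at 3.21 ± 0.802 and 4.49 ± 0.205 FPKM (SD, n = 3 each, adjusted p = 0.125 in limma, or 0.0383 with the block). Ywhaz, which encodes a 14-3-3 protein that can hold phosphorylated BAD, fell from 188 ± 18.5 to 133 ± 8.34 FPKM (SD, n = 3 each, adjusted p = 0.0115 in limma). Of 10 genes for proteins that act with the family, on the mitochondrion or elsewhere, 1 rose and 0 fell. With the block 2 rose and 1 fell (Vdac2 at adjusted p = 0.032 and Tmbim6 at 0.00312 in limma). For both lists, the share called over all tested genes was 21.4%, or 42.8% with the block. The channel gene Vdac1 had 175, 144 and 166 FPKM with DMSO and 196, 203 and 214 with CHIR99021 (adjusted p = 0.0391 in limma), a call lost on leaving out any library other than DMSO replicate 1 (up to 0.148).

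The libraries carried the markers of B cells, with Cd79a at 487 to 1471 FPKM. Of the germinal centre markers, Mki67 lay at 33.2 to 75.4 FPKM, Mef2b at 38.2 to 53.5 and Fas at 23.7 to 33.6. S1pr2 (5.09 to 10.1 FPKM) and Bcl6 (3.39 to 9.67) stood at lower levels in both groups. Of 7 pan B cell markers 6 fell with CHIR99021, and of 5 germinal centre markers 1 fell, or 2 with the block. Over all tested genes 13.3% fell and 8.13% rose, or 24.4% and 18.4% with the block. Of 6 plasma cell markers 3 rose and 0 fell, or 4 rose and 1 fell with the block, and their summed level was 503 to 785 FPKM with DMSO and 505 to 631 with CHIR99021, led by Jchain. The plasma cell regulators Irf4 and Prdm1 were 2.69-fold and 2.58-fold higher (adjusted p = 0.000431 and 0.00347 in limma), and Slamf7 was 2.14-fold higher (0.00341). Xbp1 rose with the block alone (adjusted p = 0.0172 in limma). Jchain was lower in 3 of 3 pairs and fell with the block alone (adjusted p = 0.1 in limma, 0.00134 with the block). Sdc1 was also lower in 3 of 3 pairs but did not pass the test (0.51, or 0.118 with the block). The part of such a difference between the groups in the values of the 10 genes was not tested. Of 5 T cell markers found, none reached the limit on level, with Cd3e listed at 0 in every library and the highest, Cd3g, at most 1.15 FPKM. The 6 myeloid markers summed to 6.02 to 8.05 FPKM with DMSO and 2.48 to 5.74 with CHIR99021, led by Itgam, with Cd14 listed at 0, and of 2 tested 1 fell, Itgam (adjusted p = 0.00264 in limma). All 6 markers of fibroblasts, a common feeder cell type, were found and summed to 306, 110.3 and 74.9 FPKM with DMSO and 233, 91.6 and 54.1 with CHIR99021, led by Col1a1, with Pdgfrb at most 0.107 FPKM. Of 5 tested, 1 fell, Thy1, which did not share the order of the others, and with the block 4 fell, with Col1a2 (adjusted p = 0.00479 in limma), Col3a1 (0.00629) and Fn1 (0.00472) added. In both groups replicate 1 had the highest sum, and there Bad and Bcl2l1 were highest and Bcl2l11 and Bbc3 lowest. The part of such cells in these values was not tested. Without replicate 1 of both groups, Mcl1 was still called lower (log2 change -0.67, adjusted p = 0.0171 in limma), and with the replicate block Bcl2 (0.0296) and Bad (0.0425) were too. Of the 23 genes outside the 10 that are named above as called under the naming rule, 12 were not called without replicate 1 of both groups, Birc2 (adjusted p = 0.0831), Ywhaz (0.0735) and Foxo4 (0.0757) among them, while Casp9 (0.0287), Cdkn1a (0.0126) and Bcl2a1d (0.0471) were. In the same fit, which uses fewer libraries, calls over all tested genes went from 2164 to 1088.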

How the data were processed

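The submitters' processing notes name mm10, Cufflinks 2.2.1, TopHat2 2.1.1 and cutadapt 1.12, while no source used here names the annotation or the strand setting. Per the labels' protocols, libraries came from the TruSeq Stranded mRNA kit. The authors deposited 1 table of FPKM with confidence limits per library. Starts were converted to count from 1.

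The 10096 entries averaging at least 1 FPKM were tested on log2(FPKM + 1) with limma 3.58.1 in R 4.3.3 (variance trend, two-sided, Benjamini-Hochberg over all of them, threshold 0.05). This was tested on simulated data, drawn without shared replicate effects and with planted changes larger than that of Mcl1. The simulation therefore does not cover smaller changes or libraries that vary together. FPKM are not counts, and the depth in fragments is unknown; the Cufflinks limits of the median tested gene lay 12.5% to 15.4% from its value. The series calls its replicates biological but names no animals or cultures, so p-values measure the spread between these libraries.

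Libraries of equal number deviated together from their group means, with correlations of 0.535, 0.49 and 0.517 across genes, against -0.352 to -0.14 for unequal numbers. Deviations within a group cancel out, so the negative values follow in part from the positive ones. The labels do not say what libraries of equal number share. The replicate number was taken to pair them, and a fit with it as a block is given where it changes a named gene's call or a list count. The members and lists were chosen with earlier results of these data known. A few genes of the lists are not reported here and are not in the list counts. Named beyond the 10 members were tested Bcl2a1, Bcl2l2 and BNIP3 type genes and at most 5 genes per list with the smallest adjusted p under 0.05; genes given as untested, at 0, as cell markers or as called with the block alone were added after their values were seen, to account for a list. Alternatives were another pseudocount (0.1 or 5), limit on level (none or 5 FPKM), scaling, variance model and leaving out each library; leaving out replicate 1 of both groups was chosen after seeing the data. Promoters are from RefSeq (GRCm38.p6) and strands from GENCODE M21. Python 3.11.15, pandas 2.3.3, numpy 2.4.6 and matplotlib 3.10.9 were used.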

Additional observations from a re-analysis of the deposited data

How the results depend on the processing

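The fall of Mcl1 kept its direction and its call in all 16 alternatives, with adjusted p from 0.000221 to 0.0171. With the replicate block, 4321 genes and 3 of the 10 BCL2 family genes were called, against 2164 and 1. The family count was also 3 with the block and without replicate 1 of both groups. Of the other genes named under the rule, the block changed the calls of Bcl2a1a, Bcl2a1b and Bnip3 only. Leaving out replicate 1 of both groups without the block left 1088 genes. Leaving out single libraries left 1061 (without CHIR99021 replicate 3) to 1983 genes (without DMSO replicate 2), including 1310 without DMSO replicate 3 and 1410 without CHIR99021 replicate 2, and 1 of the 10 genes each time. Of all calls 37.9% were higher, a share of 54.9% under upper-quartile scaling and 51.2% under quantile normalization. Calls of Casp2, Xiap, Fas and Plk2 were lost under upper-quartile scaling, of Fas and Plk2 under quantile normalization, of Cycs, Fas, Vdac1, Ccng1 and Plk2 without the variance trend, and those of Bcl2l12, Cycs, Vdac1, Sesn1 and Plk2 without a limit on level. Among genes of 5 FPKM or more, Bcl2 and Bbc3 were not tested. Directions turned only for genes that were not called. Bak1 (log2 change 0.0043) and Bnip3l (0.0027) turned with upper-quartile scaling. Leaving out single libraries moved Bcl2l11 between -0.16 and 0.36, Pmaip1 between -0.0020 and 0.25, Bcl2l2 between -0.068 and 0.18 and Bnip3l between -0.35 and 0.27. Without replicate 1 of both groups, with or without the block, Bcl2l11 (-0.043) and Bcl2l2 (-0.089) turned. The cause was not tested. Low genes had wide Cufflinks limits: those of Bbc3 lay 20.9% to 29% from its value, and those of Bcl2a1a 44.7% to 66.7%.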
